A study of Mus musculus with 29 samples.

Results

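The chemokine ligands were followed in the uterus of female CD-1 mice during early pregnancy. They were chosen by name: every non-control probe whose gene name, or current symbol by its accession, is Ccl, Cxcl, Cx3cl or Xcl followed by a number, except Cxcl15. This gave 36 genes, read by 45 probes, of 27670 genes read by 41174 probes in all. Where a gene had several probes, the brightest over all arrays stood for it. The naming rule itself used no difference between groups, but the members were chosen with earlier results of these data known. As pups, all mice received a daily agent on postnatal days 1 to 5. In the control groups (CON) it was corn oil, and in the exposed groups (GEN) it was genistein, a soy phytoestrogen, at 50 mg/kg per day. Adult uteri were taken on 1 of 4 gestation days (GD). GD1.5 had 3 CON and 4 GEN samples, while GD3.5 had 3 of each. For GD4.5 there were 4 CON and 4 GEN samples, as there were for GD5.5. Each of the 29 samples lay on its own single-colour array, and day and exposure made 8 groups. The labels do not say that the samples came from separate animals, so p-values measure the spread between these samples, which may be technical.

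Chemokines are small secreted proteins that guide cells carrying the matching G protein-coupled receptor, and they are classed as CC, CXC, CX3C or XC by the spacing of their first cysteines. Inflammatory members draw neutrophils, monocytes and effector T cells, while homeostatic members place cells in lymph vessels, stroma and epithelia. In the mouse uterus, mating brings an influx of leukocytes, the embryo later attaches, and the stroma then turns into decidua, a tissue in which genes for several T cell-attracting chemokines are known to be silenced. Neonatal genistein is known to impair implantation in mice. The comparisons below ask how the ligands differed between exposures on each day, and how they changed between days that shared a set of slides.

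Values are log2 intensities minus the 75th percentile of the array, so 0 is that percentile and each unit is a doubling. Levels were compared for a probe between arrays, never between probes, and the level of a probe does not rank the genes. Of the 36 ligands, 24 were well above background on all 29 arrays, 6 on 25 to 28 arrays and 6 on fewer than 20. The 13 arrays of slides 1 to 4 (GD1.5 and GD3.5) had 71.3 to 78.1% of spots well above background, and the 16 of slides 5 to 8 (GD4.5 and GD5.5) had 65.5 to 80.9%. The change from GD3.5 to GD4.5 cannot be told apart from the change of slides, and no level was compared across it. The sample GD3.5 CON 3 lay alone on its slide and in its own scan. Of slides 1 to 4, only slide 1 held CON samples of both GD1.5 and GD3.5. The early change in CON is thus largely a comparison between slides. Because whole uteri were measured, fewer cells of a type and less RNA per cell cannot be told apart. Markers of stroma and smooth muscle, which make up the uterine wall, were well above background on every array (10 of 10 and 8 of 8 genes).

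**Figure D1:**
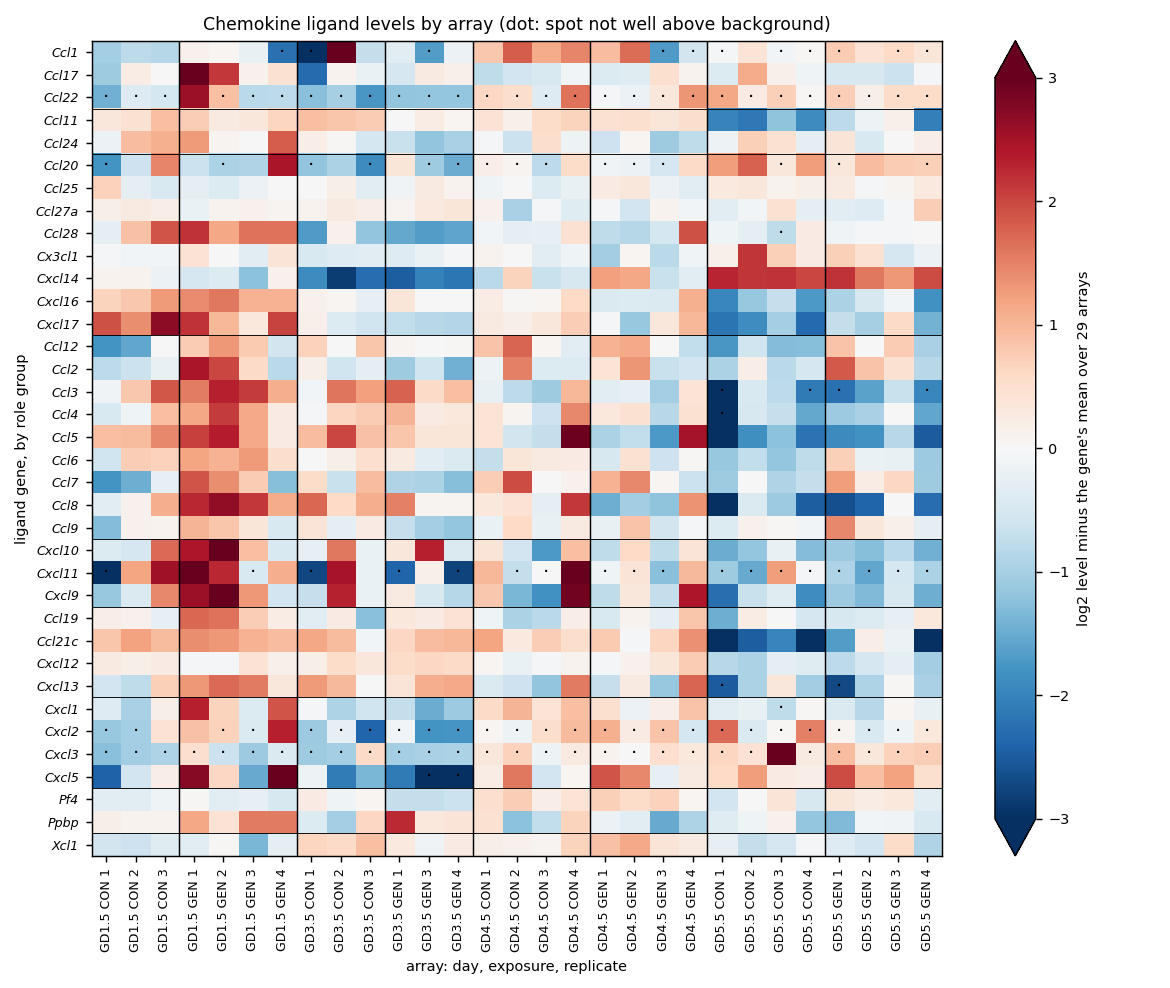
Each row is a ligand gene, grouped by role, and each column is an array (day, exposure, replicate). Colour gives the log2 level minus the gene's mean over the 29 arrays, and a dot marks a spot not well above background. Colours cannot be compared between slides 1 to 4 (GD1.5, GD3.5) and slides 5 to 8 (GD4.5, GD5.5). Cxcl14 is lower in all 6 GD3.5 arrays than in the 7 GD1.5 arrays and higher in all 8 GD5.5 arrays than in the 8 GD4.5 arrays, and Ccl22, Cxcl2 and Cxcl3 carry dots in nearly every column.

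Most of the inflammatory ligands lie in gene clusters, which place probes of related ligands side by side. On mouse build mm7, on which the array design gives its probe positions, Ccl2, Ccl7, Ccl11, Ccl12, Ccl8 and Ccl1 spanned chr11:82118723-82258468. Ccl5, Ccl9, Ccl6, Ccl3 and Ccl4 spanned chr11:83595699-83734514. Cxcl5, Ppbp, Pf4, Cxcl3, Cxcl1 and Cxcl2 spanned chr5:90732453-90894807, and the interferon-induced Cxcl9, Cxcl10 and Cxcl11 spanned chr5:92310412-92348495. The remaining cluster held Ccl22, Cx3cl1 and Ccl17 at chr8:93339853-93400973. In the files Pf4 and Ppbp bear the names Cxcl4 and Cxcl7, Cxcl17 is BC024561 and Cxcl3 is Gm1960. The Ccl21c probe matches a gene that has near-identical copies, so its signal may come from any of them, and the same holds for Ccl19. The position of each probe within exons or untranslated regions was not analysed here.

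Cxcl14, a homeostatic ligand made by epithelia and stroma, fell between GD1.5 and GD3.5 and rose between GD4.5 and GD5.5 in both exposures. Its probe lies at chr13:55377968-55378027 (mm7). In CON it read 4.13, 4.12 and 3.85 at GD1.5 and 2.14, 1.16 and 1.73 at GD3.5. In GEN it read 3.51, 3.61, 2.77 and 4.15 at GD1.5 and 1.54, 1.98 and 1.86 at GD3.5. The days did not overlap in either exposure. At GD4.5 the levels were 3.22, 4.68, 3.34 and 3.53 in CON and 5.24, 5.18, 3.34 and 3.68 in GEN. At GD5.5 they were 6.31, 6.16, 6.19 and 6.02 in CON and 6.19, 5.59, 5.31 and 5.98 in GEN. Every GD5.5 array stood above every GD4.5 array of its exposure, though GD4.5 GEN 1 and GEN 2 came close to the lowest GD5.5 GEN array. By limma with Benjamini-Hochberg adjustment over all genes tested, the early change was -2.36 (SE 0.44, adjusted p = 0.00358, 5.12-fold) in CON and -1.72 (SE 0.41, adjusted p = 0.0144, 3.29-fold) in GEN. The late change was 2.48 (SE 0.38, adjusted p = 5.19e-05, 5.58-fold) in CON and 1.41 (SE 0.38, adjusted p = 0.012, 2.66-fold) in GEN. The CON calls held without any single array. In GEN the early call was lost without GD3.5 GEN 1 (adjusted p = 0.0643) or GEN 4 (0.0631), and the late call without GD4.5 GEN 3 (0.054) or GEN 4 (0.0559). With the slide as a fixed block, the early CON call had an adjusted p of 0.0643 and the late GEN call one of 0.144. The early GEN call was also lost with the replicate number as a block, and the late GEN call in a fit of only the days compared.

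The 250 bases before the start of Cxcl14 are shown because it is the ligand called in every day change, at chr13:56296552-56296801 on the minus strand of RefSeq's GRCm38.p6. Capitals mark, in order, a TTCNNNGAA match (the STAT type, 191 to 183 bases before the start) and a match to GAAA, NN and GAAA in a row (the interferon-stimulated type, 172 to 163 bases before the start).
Cxcl14: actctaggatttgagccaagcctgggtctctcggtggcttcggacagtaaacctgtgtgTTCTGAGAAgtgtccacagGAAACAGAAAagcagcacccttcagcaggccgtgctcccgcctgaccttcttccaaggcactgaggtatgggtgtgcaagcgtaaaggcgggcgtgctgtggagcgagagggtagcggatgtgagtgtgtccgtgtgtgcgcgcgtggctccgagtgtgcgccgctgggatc
Both motifs were searched on both strands. Of 32851 RefSeq promoters of this length, 7.02% held TTCNNNGAA and 2.98% held the interferon-stimulated type. Promoter entries were matched for 25 of the 36 ligands, with 28 promoters between them. A TTCNNNGAA match was also found in Ccl17, and one of the interferon-stimulated type in Ccl19 and Cxcl10. The palindromic estrogen response element (GGTCA, NNN and TGACC in a row) was found in 0 of the 28, against 0.0639% of all promoters. A match describes letters and not a bound site.

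**Figure D2:**
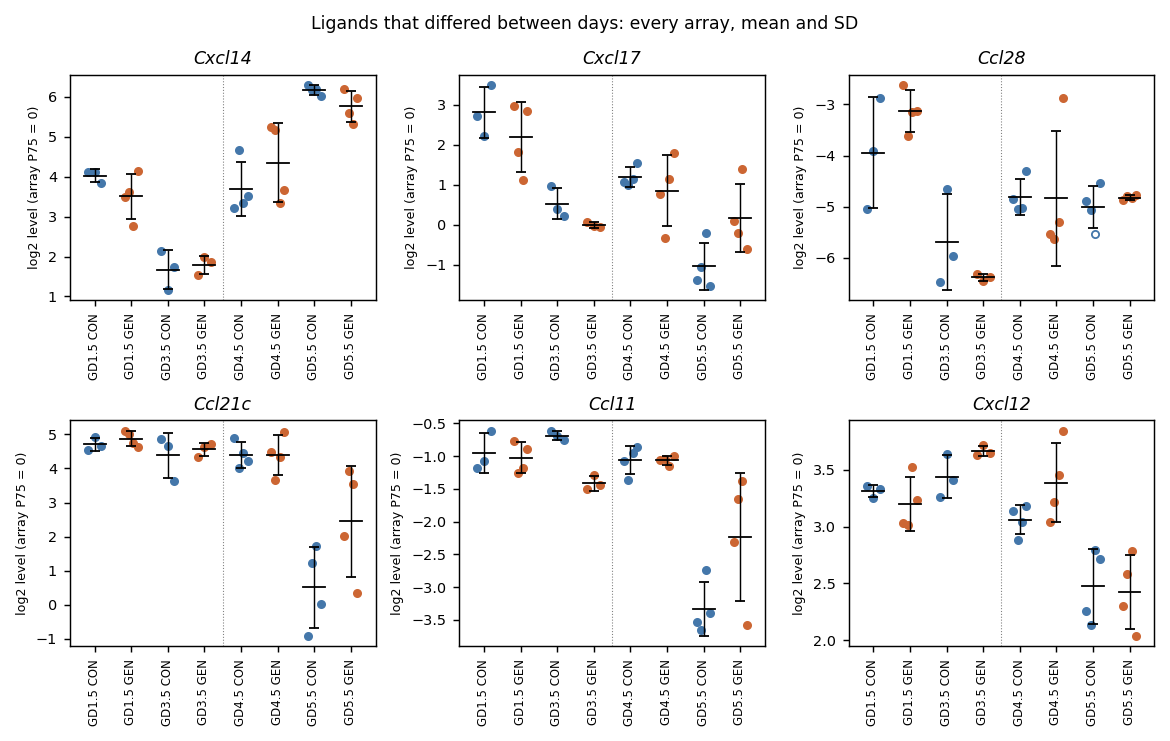
Log2 level (0 is the 75th percentile of the array) of 6 ligands on every array, with CON in blue, GEN in orange, open circles for spots not well above background, and bars for the mean and SD of each group. The dotted line parts slides 1 to 4 from slides 5 to 8. Cxcl14 and Cxcl17 are lower at GD3.5 than at GD1.5, and Ccl21c, Ccl11 and Cxcl12 are lower at GD5.5 than at GD4.5 except where single GEN arrays overlap.

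Between GD1.5 and GD3.5, 2 of the 3 calls in CON fell on the group of epithelial and mucosal ligands, namely Cxcl14 and Cxcl17. There, 3 of 33 tested ligands were called (adjusted p under 0.05), or 2 lower and 1 higher, against 2.38% of all genes tested. The median difference over the tested ligands was -0.02, against 0.02 over all genes, and 0.32 without GD1.5 CON 3. Cxcl17, a mucosal ligand that draws monocytes, read 2.71, 2.21 and 3.5 at GD1.5 and 0.97, 0.39 and 0.22 at GD3.5. The days did not overlap, and the change was -2.28 (SE 0.52, adjusted p = 0.0192, limma). This call was lost without GD1.5 CON 1 (adjusted p = 0.0502), GD1.5 CON 3 (0.112), GD3.5 CON 2 (0.0578) or GD3.5 CON 3 (0.113), with the replicate number as a block (0.0591) or with the slide as a fixed block (0.123). Xcl1, the ligand of the Xcr1 receptor of cross-presenting dendritic cells, read -1.98, -2.06 and -1.81 at GD1.5 and -0.78, -0.86 and -0.55 at GD3.5. Its rise of 1.22 (SE 0.32, adjusted p = 0.0458) was called by a narrow margin: 24 of 40 other settings ended the call, 18 of them by leaving out 1 array. Only 1 ligand stayed called, Cxcl14, without GD1.5 CON 3, GD3.5 CON 2 or GD3.5 CON 3. The count of called ligands was 0 with the slide as a fixed block and 1 with the replicate number as a block. None of the 8 tested epithelial and mucosal ligands was higher at GD3.5, and their median difference was -0.98. The 10 simple epithelium markers, whose summed level was 145.3 to 185.7 at GD1.5 and 113.0 to 137.8 at GD3.5 in CON (linear units, each array's 75th percentile being 1), had 8 lower members, 1 of them called. Their part in these changes was not tested.

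In GEN the same interval brought lower levels for more ligands, among them those that draw neutrophils. Of 33 tested ligands, 7 were called and all 7 were lower, against 4.92% of all genes tested, and the median difference was -0.82 against 0.01 over all genes. Cxcl5, an epithelial ligand of the neutrophil receptor Cxcr2, read -0.80, -2.89, -5.03 and -0.21 at GD1.5 and -5.65, -7.43 and -7.68 at GD3.5. The days did not overlap, but the GD1.5 arrays were wide apart, and the 2 lowest GD3.5 spots were not well above background. The change was -4.69 (SE 0.87, adjusted p = 0.00206, limma), and the call held in all 39 other settings that tested it, with values from -5.62 (without GD1.5 GEN 3) to -2.50 (under normexp background correction, an alternative to the deposited one). Cxcl1, another Cxcr2 ligand, read -2.54, -4.22, -5.29 and -2.99 at GD1.5 and -5.58, -6.37 and -5.97 at GD3.5. GEN 3 lay nearest to the GD3.5 arrays for both Cxcl5 and Cxcl1, and the days did not overlap. The change of Cxcl1 was -2.21 (SE 0.44, adjusted p = 0.00401), and under normexp background correction it was -0.97 (adjusted p = 0.308). Ccl28, a mucosal ligand for IgA plasma cells, read -2.62, -3.63, -3.16 and -3.13 at GD1.5 and -6.31, -6.46 and -6.37 at GD3.5. These arrays lay close together on both days, and the change was -3.25 (SE 0.53, adjusted p = 0.000586, 9.49-fold), or -1.42 (adjusted p = 0.0683) under normexp. For Cxcl1 and for Ccl28 the call held in 38 of the 39 other settings that tested it, and normexp was the exception. In CON Ccl28 read -5.05, -3.90 and -2.88 at GD1.5 and -6.47, -4.65 and -5.96 at GD3.5, a difference of -1.75 (SE 0.56, adjusted p = 0.114).

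The other calls in GEN were Cxcl17, Ccl24 and Ccl9, with Cxcl14 above. Cxcl17 read 2.98, 1.81, 1.13 and 2.85 at GD1.5 and 0.08, -0.02 and -0.06 at GD3.5, a change of -2.19 (SE 0.49, adjusted p = 0.00954, limma). Ccl24, which draws eosinophils through Ccr3, read 0.02, -1.17, -1.26 and 0.58 at GD1.5 and -1.93, -2.44 and -2.23 at GD3.5. No GD3.5 array reached the GD1.5 arrays for either gene, and Ccl24 changed by -1.74 (SE 0.40, adjusted p = 0.0121). Ccl9, a monocyte attractant acting through Ccr1, read 1.27, 1.09, 0.62 and -0.21 at GD1.5 and -0.44, -0.78 and -0.91 at GD3.5. Its change of -1.40 (SE 0.41, adjusted p = 0.0468) was near the threshold, and 23 of 40 other settings ended the call. The count of 7 fell to 3 without GD3.5 GEN 4, which ended the calls of Cxcl17 (adjusted p = 0.0551), Ccl24 (0.0641), Cxcl14 and Ccl9. Ccl24 was also lost without GD3.5 GEN 3 (0.0819). Of the calls of CON and GEN, Cxcl14 and Cxcl17 were shared, which is 66.7% of the CON calls and 28.6% of the GEN calls. Whether CON and GEN differed in these changes was tested as the difference of the GEN effect between days, given below.

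Markers of cells that carry the matching receptors, or of adhering tissue, were read over the same interval. Among all genes tested, 4.92% were called in GEN and 2.38% in CON. Neutrophil markers (11 genes tested in GEN) had a summed level of 132.0 to 283.1 at GD1.5 and 9.96 to 39.3 at GD3.5 in GEN, with 9 of 11 lower and 2 called. In CON their summed level was 120.1 to 190.6 at GD1.5 and 6.04 to 22.3 at GD3.5. Cxcr2, the neutrophil receptor of Cxcl1 and Cxcl5, fell by 3.63 in GEN (SE 0.98, adjusted p = 0.0315, limma), the only call among 14 tested chemokine receptors. Adipocyte markers, of tissue that can adhere to the uterus, were 2.73 to 43.9 at GD1.5 and 1.30 to 3.65 at GD3.5 in GEN. Of the cytokines that induce chemokines, Tnf (-1.68, adjusted p = 0.0354) and Il1a (-2.25, adjusted p = 0.0139) fell in GEN, and Il6 rose in CON (2.28, adjusted p = 0.0248). The part of these cells and cytokines in the ligand changes was not tested.

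Promoters of Cxcl1 and Ccl28 are shown because both genes fell in GEN and their upstream sequences differ in the motif searched. That of Cxcl1 is chr5:90890995-90891244 (plus strand, GRCm38.p6), where capitals mark overlapping matches to the NF-kappaB consensus on the 2 strands of the same stretch, 71 to 62 and 70 to 61 bases before the start. That of Ccl28 is chr13:119623569-119623818 (plus strand), with no match to the motifs searched.
Cxcl1: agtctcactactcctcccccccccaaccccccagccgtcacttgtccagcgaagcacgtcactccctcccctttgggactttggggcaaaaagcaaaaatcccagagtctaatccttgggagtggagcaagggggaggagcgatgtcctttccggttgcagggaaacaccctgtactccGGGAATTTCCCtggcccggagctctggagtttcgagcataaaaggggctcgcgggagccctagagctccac
Ccl28: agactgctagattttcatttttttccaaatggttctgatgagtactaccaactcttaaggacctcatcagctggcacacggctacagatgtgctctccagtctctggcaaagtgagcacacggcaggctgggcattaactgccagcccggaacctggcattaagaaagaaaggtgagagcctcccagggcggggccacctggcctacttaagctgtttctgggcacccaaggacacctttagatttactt
The NF-kappaB consensus, searched on both strands, was found in 7.25% of all RefSeq promoters of this length and in 7 of the 28 ligand promoters. These belonged to Ccl1, Ccl20, Ccl9, Cxcl1, Cxcl10, Cxcl2 and Cxcl3. No match says only that these letters are not in this window.

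**Figure D3:**
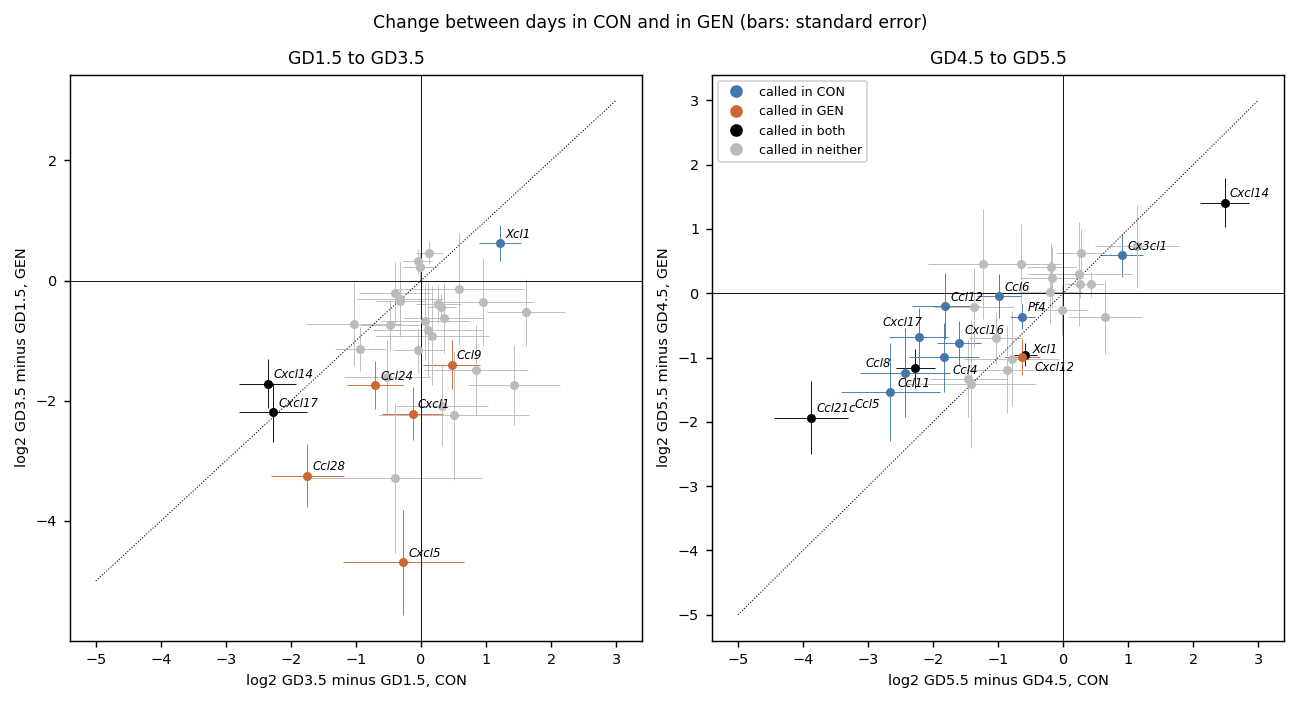
Each point is a ligand, with its log2 change in CON on the x axis and in GEN on the y axis, from GD1.5 to GD3.5 (left) and from GD4.5 to GD5.5 (right). Bars are standard errors, colours mark calls (adjusted p under 0.05), and the dotted line marks equal change. Cxcl5 lies lowest on the left, at -0.27 in CON and -4.69 in GEN, with 1 of its 3 GD3.5 GEN spots well above background, and Ccl21c lies leftmost on the right, at -3.87 in CON and -1.94 in GEN.

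Between GD4.5 and GD5.5, when the wall around the embryos decidualizes, many ligands fell in CON while Cxcl14 and Cx3cl1 rose. Of 32 tested ligands, 13 were called, 11 lower and 2 higher, against 30.6% of all genes tested. An unadjusted p under 0.05 was reached by 18, against 39.9% of all genes. The median difference was -0.72, against 0.02 over all genes. Ccl21c, a ligand of the Ccr7 receptor made by lymphatic vessels, read 4.89, 4.00, 4.44 and 4.23 at GD4.5, then -0.91, 1.23, 1.72 and 0.03 at GD5.5. Its highest GD5.5 array stood over 2 log2 units under its lowest GD4.5 array. The change was -3.87 (SE 0.57, adjusted p = 3.80e-05, 14.7-fold, limma). Ccl11, or eotaxin, which draws eosinophils through Ccr3, read -1.07, -1.36, -0.96 and -0.86 at GD4.5, then -3.53, -3.66, -2.73 and -3.40 at GD5.5. The days were far apart against their spread, and the change was -2.27 (SE 0.30, adjusted p = 1.01e-05, 4.83-fold). Cxcl12, the stromal ligand of Cxcr4, read 3.13, 2.89, 3.04 and 3.18 at GD4.5, then 2.26, 2.13, 2.80 and 2.71 at GD5.5. The gap between the days was narrow, and the change of -0.59 (SE 0.18, adjusted p = 0.0149) lost its call without GD5.5 CON 1 (0.0565) or CON 2 (0.0648). The second Cxcl12 probe gave -1.44.

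All 9 inflammatory CC ligands were lower at GD5.5 in CON, with a median difference of -1.46, and 5 of them were called: Ccl5, Ccl8, Ccl4, Ccl12 and Ccl6. Ccl5, a T cell and monocyte attractant, read 1.26, 0.28, 0.12 and 3.78 at GD4.5, then -2.42, -1.0, -0.39 and -1.37 at GD5.5. GD4.5 CON 4 stood well above the rest, and the days did not overlap. The change was -2.66 (SE 0.76, adjusted p = 0.0108, limma), or -1.85 (adjusted p = 0.0569) without GD4.5 CON 4. Ccl8, a ligand of the same cluster as Ccl2, read 2.71, 2.83, 2.11 and 4.52 at GD4.5, then -0.70, 1.95, 1.29 and -0.09 at GD5.5. The same array was again highest, and the change was -2.43 (SE 0.69, adjusted p = 0.0102), with an adjusted p of 0.05004 without GD5.5 CON 1. Ccl12, a mouse monocyte attractant, read 0.08, 0.96, -0.72 and -1.11 at GD4.5, then -2.53, -1.37, -2.07 and -2.07 at GD5.5. The days did not overlap, and the change of -1.81 (SE 0.52, adjusted p = 0.0102) held its call in all 40 other settings. Ccl4, an attractant of monocytes and T cells, changed by -1.84 (adjusted p = 0.0125), and its days overlapped. Its adjusted p was 0.0562 without GD4.5 CON 4 and 0.0728 without GD5.5 CON 1. Ccl6 changed by -0.98 (adjusted p = 0.0315), a call that was lost without any of GD4.5 CON 2, CON 3 or CON 4 or GD5.5 CON 1 or CON 3 (adjusted p 0.0707 to 0.0823). Without GD5.5 CON 1, the lowest array for Ccl4, Ccl5 and Ccl8, the count of called ligands was 8 in place of 13.

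Among the epithelial and platelet ligands in CON, Cxcl17 read 1.07, 0.99, 1.15 and 1.54 at GD4.5, then -1.38, -1.04, -0.20 and -1.52 at GD5.5. Cxcl16, a membrane-bound ligand of the T cell receptor Cxcr6, read 1.02, 0.84, 0.86 and 1.41 at GD4.5, then -1.16, -0.34, 0.12 and -0.92 at GD5.5. Neither gene overlapped between days. Cxcl17 changed by -2.22 (SE 0.45, adjusted p = 0.00086, limma) and Cxcl16 by -1.61 (SE 0.34, adjusted p = 0.00112), and both calls held in all 40 other settings. The second Cxcl16 probe gave -1.58. Pf4, released by platelets and also made by macrophages, read 2.26, 2.49, 1.97 and 2.17 at GD4.5, then 1.18, 1.77, 2.15 and 1.28 at GD5.5. Its days overlapped, and the change of -0.63 (SE 0.19, adjusted p = 0.0163) was lost without GD5.5 CON 1 (0.0787) or CON 4 (0.0591). Cx3cl1, the membrane-bound ligand of Cx3cr1, read 2.07, 1.93, 1.63 and 1.84 at GD4.5, then 2.10, 4.10, 2.67 and 2.20 at GD5.5. The days did not overlap, but GD5.5 CON 2 carried much of its rise of 0.90 (SE 0.33, adjusted p = 0.0425), which was 0.46 (adjusted p = 0.224) without that array. The call was also lost without GD5.5 CON 3 or any 1 GD4.5 CON array (adjusted p 0.0551 to 0.106) and with the replicate block (0.0639). The second Cx3cl1 probe gave 0.21, and the mean over both probes had an adjusted p of 0.266. Arrays scaled to their median in place of the 75th percentile ended the calls of Cxcl12, Pf4 and Ccl6 in CON, with adjusted p-values of 0.0503, 0.099 and 0.0641.

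In GEN the late interval gave fewer calls among the ligands: 5 of 32 tested, 4 lower and 1 higher, against 21.7% of all genes tested. Every GD5.5 array lay above every GD4.5 array in 1 ligand (8.27% of all genes) and below in 3 (6.04%). The median difference was -0.31, against 0.09 over all genes. Under normexp it was 0.21, with 12 ligands called, where 11754 of 20949 genes were called with a median of 0.36 over all genes. Ccl21c read 4.48, 3.66, 4.35 and 5.07 at GD4.5, then 2.03, 3.92, 3.54 and 0.33 at GD5.5. The days overlapped, since GD5.5 GEN 2 stood above GD4.5 GEN 2. The change was -1.94 (SE 0.57, adjusted p = 0.02, limma), with an adjusted p of 0.0738 without GD4.5 GEN 4, 0.0646 without GD5.5 GEN 1 and 0.0887 without GD5.5 GEN 4. This call was also lost with the slide as a fixed block, with the replicate block and in a fit of only the days compared. Ccl11 read -1.05, -1.04, -1.16 and -0.99 at GD4.5, then -2.31, -1.66, -1.38 and -3.57 at GD5.5. The GD4.5 arrays were tight and the GD5.5 arrays wide, without overlap, and the change was -1.17 (SE 0.30, adjusted p = 0.00904). The Ccl11 call was lost under normexp, with the slide as a fixed block and in a fit of only the days compared. Over the other settings its change ran from -1.455 to -0.525. Cxcl12 read 3.04, 3.21, 3.45 and 3.84 at GD4.5, then 2.30, 2.58, 2.78 and 2.04 at GD5.5. Its change of -0.96 (SE 0.18, adjusted p = 0.00106) held its call in all 40 other settings, and its second probe gave -1.46. Xcl1 read -0.55, -0.31, -1.05 and -1.17 at GD4.5, then -1.83, -2.01, -0.88 and -2.33 at GD5.5. GEN 3 was the GD5.5 array that overlapped with GD4.5. The change was -0.99 (SE 0.28, adjusted p = 0.0159), with an adjusted p of 0.0646 without GD5.5 GEN 4. The Xcl1 call was also lost under normexp and in a fit of only the days compared. Leaving out GD4.5 GEN 4 or GD5.5 GEN 4 brought the count from 5 to 3, a fixed slide block brought it to 2, and a fit of the GD4.5 and GD5.5 arrays alone brought it to 1, Cxcl12.

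Ccl11, Ccl21c, Cxcl12 and Cxcl14 were called in both exposures over this interval, which is 30.8% of the CON calls and 80.0% of the GEN calls. By limma, 0 of the 9 inflammatory CC ligands were called in GEN (1 had an unadjusted p under 0.05), where 7 of 9 were lower with a median of -0.22. Cell markers were read over the same interval, where the share called among all genes tested was 30.6% in CON and 21.7% in GEN. In CON, 9 of 11 macrophage and dendritic cell markers were called lower. Their summed level was 98.3 to 230.2 at GD4.5 and 46.7 to 88.3 at GD5.5. In GEN, 2 of 11 were called lower, and the summed level was 67.2 to 209.6 at GD4.5 and 34.4 to 92.4 at GD5.5. Counts of calls do not compare the exposures, and over all genes 1 of 22560 was called for a difference between CON and GEN in this change. Simple epithelium markers were 113.5 to 212.4 and 66.9 to 89.9 in CON, with 6 of 10 called lower, and lymphatic and high endothelial markers were 3.48 to 4.87 and 2.33 to 3.38, with 2 of 9 tested called lower. Their part in the ligand changes was not tested.

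Receptors of these ligands were read over the same interval, in which 30.6% of all genes tested were called in CON and 21.7% in GEN. In CON the receptors that fell included the T cell receptors Cxcr3 (-1.88, adjusted p = 0.00192) and Cxcr6 (-2.25, adjusted p = 0.00817), the eosinophil receptor Ccr3 (-1.50, adjusted p = 0.00361) and the Ccl25 receptor Ccr9 (-1.95, adjusted p = 0.0126). These are named singly, and no excess of receptors over the 30.6% of all genes was shown. In GEN Cxcr6 (-1.98, adjusted p = 0.0259) and the Cxcl12 receptor Cxcr4 (-0.82, adjusted p = 0.0304) fell and Xcr1 rose (0.79, adjusted p = 0.0223), so that 3 of 15 tested were called, a share near the 21.7% of all genes. Of the 5 atypical receptors, which bind chemokines without signalling for migration, Ackr1 (-1.32, adjusted p = 0.000553), Ackr2 (-1.52, adjusted p = 0.0035) and Ccrl2 (-1.01, adjusted p = 0.0122) fell in CON. Ccrl2 also fell in GEN (-0.87, adjusted p = 0.0386). Of 9 tested cytokines, Il1b (-2.26, adjusted p = 0.0338), Il4 (-1.03, adjusted p = 0.03) and Ifng (-1.77, adjusted p = 0.0331) fell in CON, which is 3 of 9 against 30.6% of all genes. In GEN 0 were called, against 21.7% of all genes, and 1 had an unadjusted p under 0.05. Among 14 interferon response genes, the kind that accompanies Cxcl9 and Cxcl10, 8 were called lower in CON, against 30.6% of all genes called in either direction. In GEN 2 were called lower and 1 higher, against 21.7%. All p-values are limma's, adjusted over all genes tested.

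The promoters of Ccl12 and Ccl8 are shown because these neighbours in the chromosome 11 cluster both fell late in CON. They lie at chr11:82101595-82101844 and chr11:82114935-82115184 (plus strand, GRCm38.p6). Capitals mark a TATAAA box, 31 to 26 bases before the start of Ccl12 and 32 to 27 bases before that of Ccl8.
Ccl12: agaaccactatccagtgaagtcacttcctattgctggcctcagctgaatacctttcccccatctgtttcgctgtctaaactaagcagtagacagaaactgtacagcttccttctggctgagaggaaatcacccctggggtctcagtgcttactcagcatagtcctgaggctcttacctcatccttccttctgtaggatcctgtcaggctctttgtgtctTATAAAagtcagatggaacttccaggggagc
Ccl8: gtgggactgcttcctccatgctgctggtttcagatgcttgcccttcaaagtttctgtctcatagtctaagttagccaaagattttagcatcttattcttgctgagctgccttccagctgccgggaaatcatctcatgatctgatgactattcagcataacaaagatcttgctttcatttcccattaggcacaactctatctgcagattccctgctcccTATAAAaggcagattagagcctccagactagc
TATAAA, searched on both strands, was found in 9 of the 28 ligand promoters and in 12.4% of all promoters. TGANTCA, the AP-1 type, was found in 4 of the 28 and in 6.75% of all. Over the 6 ligands of this cluster the late differences in CON ran from -2.43 to -0.65 with a median of -1.59. Over the 5 of the neighbouring cluster (Ccl5, Ccl9, Ccl6, Ccl3 and Ccl4) they ran from -2.66 to -0.19 with a median of -1.46.

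At GD1.5 most ligands read higher in GEN than in CON, but none passed the test. By limma, 0 of 34 tested ligands were called, against 0.0975% of all genes tested. At an unadjusted p under 0.05 there were 9, all higher, against 6.13% of all genes. The median difference was 0.80, against -0.01 over all genes, and 27 of 34 were positive. Without GD1.5 CON 1, whose inflammatory ligands were the lowest of the CON arrays for Ccl7 and Ccl8, the median was 0.27. In 3 ligands every GEN array exceeded every CON array (3.52% of all genes did so), namely Ccl8, Ccl19 and Ppbp. In 1, Ccl27a, every GEN array was lower (4.81% of all genes). For Ccl19 and Ccl8 the gap between the groups was narrow.

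**Figure D4:**
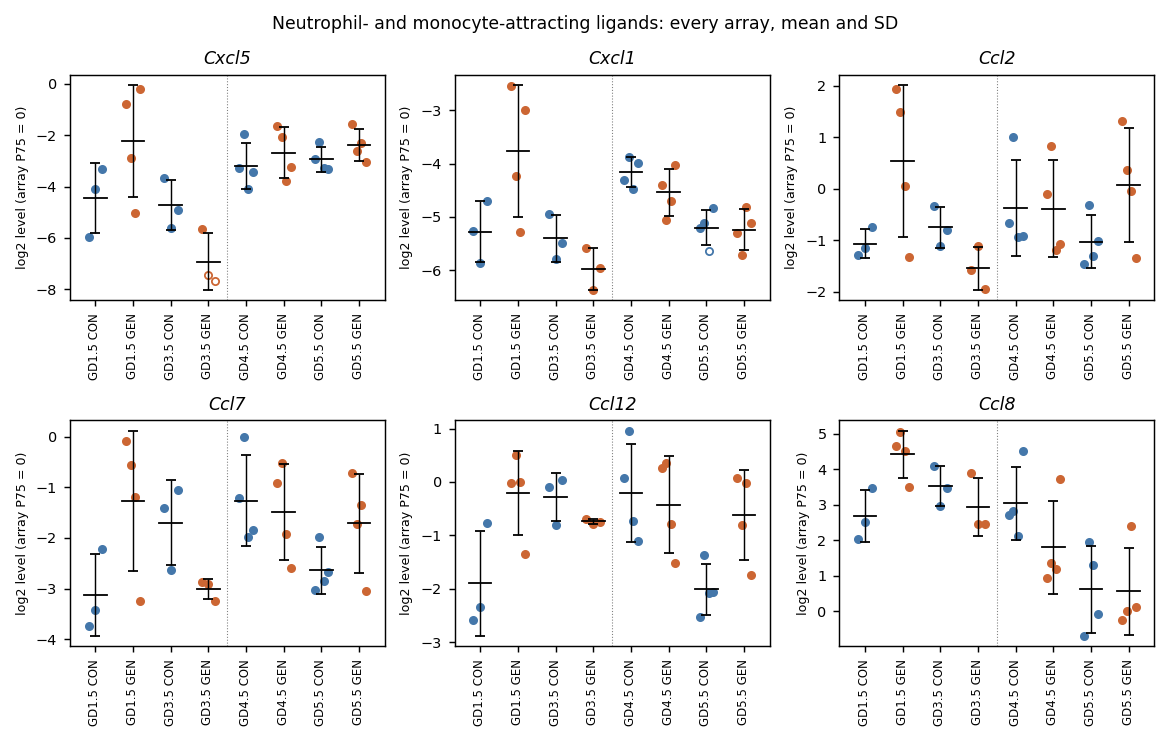
Log2 level (0 is the 75th percentile of the array) of 6 ligands that draw neutrophils or monocytes on every array, with CON in blue, GEN in orange, open circles for spots not well above background, and bars for the mean and SD. The dotted line parts slides 1 to 4 from slides 5 to 8. At GD1.5 the GEN arrays spread from -5.03 to -0.21 for Cxcl5 and from -1.33 to 1.94 for Ccl2, with the lowest GEN array inside or below the CON range.

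The Cxcr2 ligands Cxcl5 and Cxcl1 were among the 9 at GD1.5. Cxcl5 read -5.95, -4.10 and -3.31 in CON and -0.80, -2.89, -5.03 and -0.21 in GEN. GEN 3 fell inside the CON range, while the other 3 lay above it. The difference was 2.22 (SE 0.87, adjusted p = 0.612, limma), and between group means on the same slide it ran from -1.33 to 3.07. Only slides 1 and 2 held both groups of GD1.5, so the values by slide use CON 1 with GEN 2, and CON 2 and CON 3 with GEN 3, and leave out GEN 1 and GEN 4. Cxcl1 read -5.26, -5.86 and -4.70 in CON and -2.54, -4.22, -5.29 and -2.99 in GEN, with GEN 3 again inside the CON range. Its difference was 1.51 (SE 0.44, adjusted p = 0.331), and -0.01 to 1.04 by slide. Without GEN 3 it was called, at 2.02 (adjusted p = 0.0446). Cxcl2, also among the 9, was well above background on only 3 arrays in all, CON 3, GEN 1 and GEN 4 of this day. It was tested through those 3, its other spots give only a bound, and no size is given for its difference. Neutrophil markers had a summed level of 120.1 to 190.6 in CON and 132.0 to 283.1 in GEN, with 10 of 11 positive and 0 called. Adipocyte markers were 2.48 to 8.54 and 2.73 to 43.9, with 8 of 8 positive and 0 called. B and plasma cell markers were 2.38 to 4.70 and 6.16 to 45.9, with 9 of 9 tested positive. Their part in these differences was not tested.

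All 9 inflammatory CC ligands were positive at GD1.5, with a median of 1.06. Ccl7 read -3.75, -3.42 and -2.21 in CON and -0.08, -0.56, -1.20 and -3.24 in GEN. Ccl2, the main ligand of the monocyte receptor Ccr2, read -1.30, -1.16 and -0.74 in CON and 1.94, 1.49, 0.06 and -1.33 in GEN. In both genes GEN 4 lay within or under the CON range and the other GEN arrays lay above it. Ccl7 differed by 1.85 (SE 0.66, adjusted p = 0.539, limma) and Ccl2 by 1.60 (SE 0.66, adjusted p = 0.647). Ccl12 read -2.58, -2.35 and -0.77 in CON and -0.01, 0.51, 0.01 and -1.34 in GEN, a difference of 1.69 (SE 0.56, adjusted p = 0.46). Ccl8 read 2.04, 2.51 and 3.48 in CON and 4.66, 5.05, 4.52 and 3.49 in GEN, a difference of 1.75 (SE 0.75, adjusted p = 0.694). On slides 1 and 2, which leave out GEN 1 and the low GEN 4, the GEN means of all 4 genes were above the CON means, by 1.62 to 3.18 for Ccl7, 1.01 to 2.78 for Ccl2, 1.57 to 3.09 for Ccl12 and 1.52 to 3.01 for Ccl8. Over the chromosome 11 cluster that holds them, the median GEN minus CON difference was 1.65. The second Ccl7 probe gave 1.87.

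The remaining high ligands at GD1.5 had other roles. Ccl17, which draws Ccr4-bearing T cells, read -4.65, -3.35 and -3.59 in CON and 0.00, -1.46, -3.45 and -3.12 in GEN. Most of its difference of 1.86 (SE 0.61, adjusted p = 0.462, limma) came from GEN 1 and GEN 2, the others lying near the CON range. Cxcl9, an interferon-induced ligand of Cxcr3, read -3.33, -2.63 and -0.75 in CON and 0.40, 2.06, -0.90 and -2.77 in GEN, with a difference of 1.93 (SE 1.08, adjusted p = 0.93). Its groups overlapped widely. Ccl19, a Ccr7 ligand of lymphoid stroma, read -0.65, -0.73 and -1.11 in CON and 0.86, 0.77, -0.12 and -0.65 in GEN. Its difference was 1.05 (SE 0.42, adjusted p = 0.63), and its second probe gave 0.95. At the other end stood Cxcl17 (-0.62), Cxcl14 (-0.52), Ccl25 (-0.21) and Ccl27a (-0.18), none of them near the threshold. These belong to the 8 tested epithelial and mucosal ligands, of which 4 were positive. Gland epithelium markers were 6.27 to 108.3 in CON and 1.41 to 3.84 in GEN on this day. Of these, 7 of 7 tested were lower and 1 was called, against 0.0975% of all genes called. Their part in these values was not tested.

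**Figure D5:**
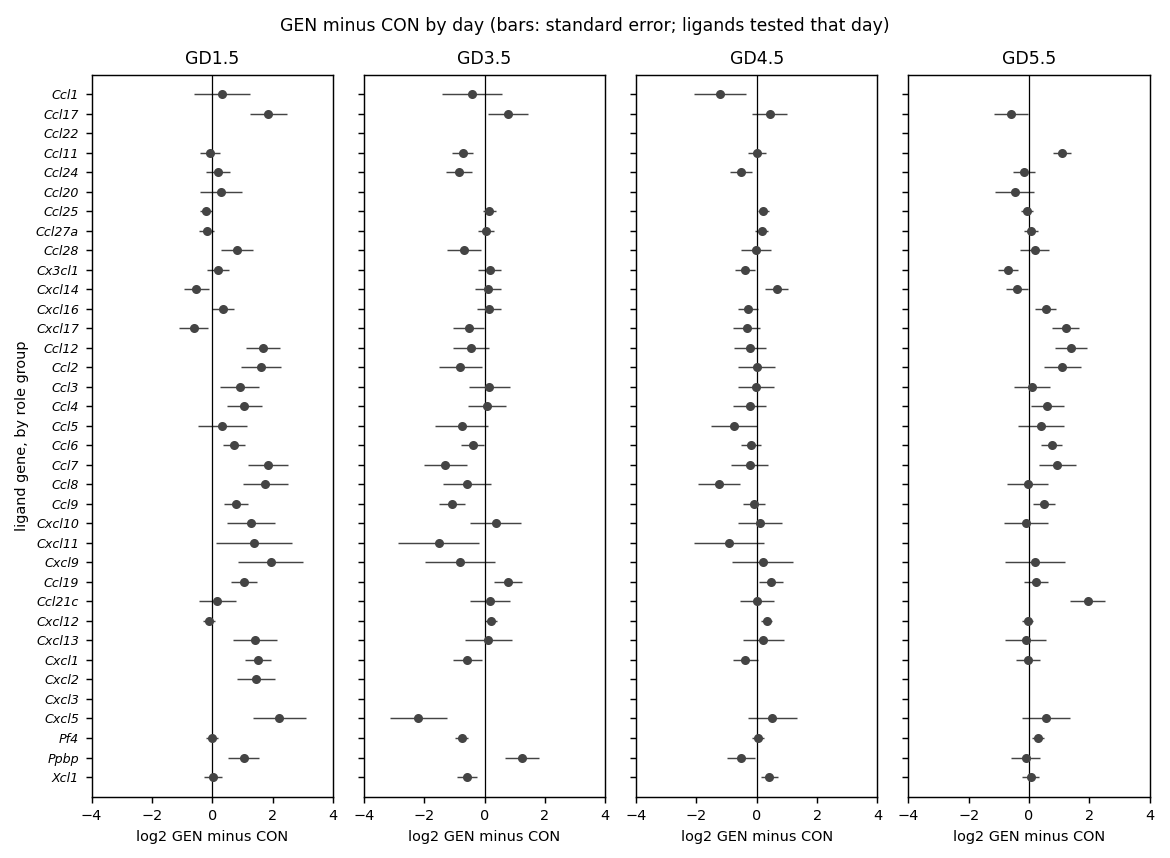
Each panel is a day, and each point is the log2 difference GEN minus CON of a ligand with its standard error, for the ligands tested on that day, grouped by role. At GD1.5, 27 of 34 points lie right of 0, and at GD4.5 the points lie near 0 with a median of -0.02. No ligand passed the test on any day.

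At GD3.5 the lean was the other way for inflammatory ligands, again with 0 calls of 32 tested, against 0.103% of all genes tested. An unadjusted p under 0.05 was reached by 5 ligands, 4 lower and 1 higher, against 5.54% of all genes. The median was -0.44, against -0.03 over all genes, and it was -0.14 without GD3.5 CON 2 and -0.07 with the replicate block. In 10 of 32 ligands every GEN array lay under every CON array, as in 12.4% of all genes, and in 0 above, against 7.86%. These 10 were Cxcl5, Ccl7, Ccl9, Ccl24, Ccl2, Pf4, Ccl5, Ccl11, Xcl1 and Cxcl17. For some the gap between the groups was very narrow. The highest GEN and lowest CON arrays read -1.1134 and -1.1109 for Ccl2, -5.6497 and -5.6115 for Cxcl5, and 1.6678 and 1.7157 for Ccl5. Pf4 read 2.00, 1.65 and 1.83 in CON and 1.04, 1.05 and 1.12 in GEN. The GEN arrays were tight and clearly lower, with a difference of -0.76 (SE 0.22, adjusted p = 0.304, limma). Cxcl5 read -3.68, -5.61 and -4.89 in CON and -5.65, -7.43 and -7.68 in GEN, where 2 of 3 spots were not well above background. Its difference was -2.19 (SE 0.93, adjusted p = 0.762).

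Ccl9 at GD3.5 read 0.63, -0.02 and 0.51 in CON and -0.44, -0.78 and -0.91 in GEN, a difference of -1.08 (SE 0.43, adjusted p = 0.697, limma). Ccl11 read -0.62, -0.69 and -0.76 in CON and -1.51, -1.28 and -1.45 in GEN, a difference of -0.72 (SE 0.34, adjusted p = 0.881). The groups were apart in both, and on slides 1 and 3, each with 1 array of either group, GEN was lower by 0.88 to 1.07 for Ccl9 and 0.76 to 0.89 for Ccl11. Ccl7 (-1.31), Ccl24 (-0.85) and Cxcl9 (-0.82) were also low. Cxcl11 differed by -1.52 (SE 1.34), with 2 of 3 CON and 1 of 3 GEN spots well above background. The highest were Ppbp, another platelet ligand (1.24, SE 0.55, adjusted p = 0.81), Ccl19 (0.78), Ccl17 (0.77) and Cxcl10 (0.37). Eosinophil and mast cell markers, cells that the Ccr3 ligands Ccl11 and Ccl24 draw, were 3.72 to 9.73 in CON and 1.66 to 1.85 in GEN. Of these, 8 of 9 tested were lower and 2 were called, against 0.103% of all genes called. Their part in the ligand values was not tested.

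At GD4.5 the ligands showed no lean: 0 of 32 tested were called by limma, against 0.116% of all genes, and 0 had an unadjusted p under 0.05, against 9.54%. The median was -0.02, and 0.06 without GD4.5 CON 4. In 0 ligands the groups did not overlap, against 1.27% of all genes higher and 2.88% lower. Ccl8 read 2.71, 2.83, 2.11 and 4.52 in CON and 0.93, 1.35, 1.18 and 3.74 in GEN. In each exposure the sample numbered 4 stood far above the other 3, and the difference was -1.24 (SE 0.69, adjusted p = 0.61). Ccl5 (-0.75), Ppbp (-0.52) and Ccl24 (-0.52) were also low, as were Ccl1 (-1.21) and Cxcl11 (-0.92), which were well above background on only 2 and 1 of the 4 GEN arrays. Cxcl14 (0.67), Cxcl5 (0.51), Ccl19 (0.47) and Ccl17 (0.43) were highest.

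At GD5.5 several ligands that had fallen in CON read higher in GEN, without passing the test. The late change in CON and this comparison use the same GD5.5 CON arrays, so they are not independent. Of 31 tested ligands 0 were called by limma, against 0% of all genes tested, and 6 had an unadjusted p under 0.05 (5 higher, 1 lower), against 5.4%. In 0 ligands the groups did not overlap, against 0.883% of all genes higher and 0.84% lower. The median was 0.19, against -0.01 over all genes, and -0.03 without GD5.5 CON 1. Under normexp background correction 12 ligands were called, as were 9700 of 20837 genes, and 0 ligands and 8 genes after that correction was refitted without the few spots of high local background. Ccl21c read -0.91, 1.23, 1.72 and 0.03 in CON and 2.03, 3.92, 3.54 and 0.33 in GEN. Ccl11 read -3.53, -3.66, -2.73 and -3.40 in CON and -2.31, -1.66, -1.38 and -3.57 in GEN. In both genes GEN 4 lay inside the CON range and the other 3 GEN arrays lay above it. The differences were 1.94 for Ccl21c (SE 0.57, adjusted p = 0.523) and 1.10 for Ccl11 (SE 0.30, adjusted p = 0.43). Without GEN 4 both were called, at 2.65 (adjusted p = 0.00757) and 1.55 (adjusted p = 0.000813). Between samples of the same number, which deviated together on this day, GEN was higher in 4 of 4 pairs for Ccl21c, by 0.31 to 2.94, and in 3 of 4 for Ccl11, from -0.17 to 2.00. With the replicate block the adjusted p-values were 0.395 and 0.578.

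Other ligands high at GD5.5 were Ccl12 and Cxcl17. Ccl12 read -2.53, -1.37, -2.07 and -2.07 in CON and 0.08, -0.80, -0.03 and -1.74 in GEN, a difference of 1.39 (SE 0.52, adjusted p = 0.698, limma). Cxcl17 read -1.38, -1.04, -0.20 and -1.52 in CON and 0.10, -0.19, 1.39 and -0.61 in GEN, a difference of 1.21 (SE 0.45, adjusted p = 0.709). In both genes the groups overlapped. GEN was higher in 4 of 4 same-numbered pairs for each, by 0.33 to 2.61 for Ccl12 and 0.85 to 1.59 for Cxcl17, and with the replicate block the adjusted p-values were 0.623 and 0.654. Between group means on slides 6, 7 and 8 GEN was higher by 0.33 to 2.56 for Ccl12 and 0.85 to 2.13 for Cxcl17. Cx3cl1 differed by -0.69 (SE 0.33, adjusted p = 0.922), where GD5.5 CON 2 was the high array. Ccl17 (-0.60) and Cxcl14 (-0.40) were also low. Among inflammatory CC ligands 8 of 9 were positive with a median of 0.61. Macrophage and dendritic cell markers were 46.7 to 88.3 in CON and 34.4 to 92.4 in GEN, with 10 of 10 tested positive and 0 called. Lymphatic and high endothelial markers were 2.33 to 3.38 and 2.78 to 4.58, with 9 of 9 tested positive and 0 called, and their part in the ligand values was not tested.

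Averaged over the 4 days, 0 of 34 tested ligands were called by limma, against 1.04% of all genes, and 2 had an unadjusted p under 0.05, against 9.91%. These were Ccl19 (0.63, SE 0.21, adjusted p = 0.194) and Ccl12 (0.60, SE 0.27, adjusted p = 0.452). Ccl19 was positive on each of the 4 days. The GEN effect was also compared between days. From GD1.5 to GD3.5, 0 of 34 ligands were called, against 0% of all genes, and 9 had an unadjusted p under 0.05, against 2.36%. All 9 were negative: Cxcl5 (-4.42, SE 1.28, with 1 of 3 GD3.5 GEN spots well above background), Ccl7 (-3.16, SE 0.97), Ccl2 (-2.41), Ccl8 (-2.33), Ccl12 (-2.14), Cxcl1 (-2.08), Ccl9 (-1.87), Ccl6 (-1.12) and Pf4 (-0.75). Their adjusted p was 1 after rounding. From GD3.5 to GD4.5, 0 of 33 were called (0% of all genes) and 4 had an unadjusted p under 0.05 (4.74%), namely Cxcl5 (2.70), Xcl1 (0.98), Pf4 (0.80) and Ppbp (-1.77). From GD4.5 to GD5.5, 0 of 33 were called, against 0.00443% of all genes, and 4 had an unadjusted p under 0.05, against 7.36%. These were Ccl21c (1.94, SE 0.81, adjusted p = 0.629), Ccl12 (1.61, SE 0.73, adjusted p = 0.649), Cxcl17 (1.54, SE 0.64, adjusted p = 0.629) and Ccl11 (1.10, SE 0.42, adjusted p = 0.599). Without GD5.5 GEN 4 the Ccl11 value was 1.55 and was called (adjusted p = 0.0208).

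Chemokine receptors gave 0 calls by limma in GEN against CON on each of the 4 days. At GD1.5 all 14 tested receptors were positive, with a median of 0.72, and 3 had an unadjusted p under 0.05, against 6.13% of all genes. The largest were the neutrophil receptor Cxcr2 (2.06), the B cell receptor Cxcr5 (1.67) and Cxcr6 (1.33). At GD3.5, GD4.5 and GD5.5 the receptor medians were 0.14, -0.23 and 0.38, with 1, 1 and 0 of them at an unadjusted p under 0.05, against 5.54%, 9.54% and 5.4% of all genes. Cytokines that induce chemokines were positive in 9 of 9 tested at GD1.5 with a median of 1.16, and 1 of 8 at GD3.5 with a median of -0.42, with 0 called on either day. On these 2 days 4 and 0 of them had an unadjusted p under 0.05, against 6.13% and 5.54% of all genes.

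Ligands near background set a limit on what could be seen. Ccl22 and Cxcl3 were well above background on 1 array each, GD1.5 GEN 1 for Ccl22 (-5.84) and GD5.5 CON 3 for Cxcl3 (-5.38). Cxcl11 was so on 11 arrays, Ccl20 on 14 and Ccl1 on 18. Ccl20, which draws Ccr6-bearing cells to mucosae, read -7.75, -6.58 and -4.50 at GD1.5 in CON and -6.61, -6.91, -6.87 and -3.53 in GEN. These arrays spread over more than 4 log2 units, with CON 3 and GEN 4 high. Cxcl13, the B cell attractant, was well above background on 27 arrays and read -4.28, -4.47 and -3.01 in CON and -2.41, -2.02, -2.15 and -3.38 in GEN at GD1.5. Its difference there was not among those with an unadjusted p under 0.05.

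Within groups, samples that were high for some ligands were high for others. Over the 24 ligands well above background on all 29 arrays, deviations from the group mean were correlated in 276 pairs, with permutation within groups. After Benjamini-Hochberg adjustment, 25 pairs had p under 0.05, 23 of them positive. The share among pairs of other genes was not computed, so no excess among the ligands was shown. The permutation took no account of shared slides, nor of the same-numbered GD5.5 samples that deviated together, so its p-values may be too small. Ccl12 and Ccl7, which lie in the same cluster and both bind Ccr2, had Pearson's r = 0.924 and Spearman's rho = 0.94 (each permutation p = 1e-05, the smallest that 100000 permutations can give, adjusted p = 0.000552). Without the 2 arrays farthest from the median of Ccl12, r was 0.915, and it was 0.885 on slides 1 to 4 and 0.97 on slides 5 to 8. Ccl2 and Ccl7 gave r = 0.912 and rho = 0.891 (adjusted permutation p = 0.000552 for both), and r was 0.875 without the 2 farthest arrays and 0.878 and 0.946 on the first and the later slides. Ccl6 and Ccl9 gave r = 0.834 (adjusted permutation p = 0.00153) and rho = 0.771 (0.00351), and r was 0.782 without the 2 farthest arrays. The T cell attractants Ccl5 and Cxcl9, on different chromosomes, gave r = 0.876 and rho = 0.873 (adjusted permutation p = 0.000552 for both). There, r was 0.856 without the 2 farthest arrays and 0.956 and 0.934 on the first and the later slides. Cxcl12 and Cxcl14 ran opposite ways within groups, with r = -0.634 (adjusted permutation p = 0.021) and rho = -0.683 (0.0128), and r was -0.572 without the 2 farthest arrays and -0.642 and -0.634 on the first and the later slides. Arrays share the tissue sample and its mixture of cells, whose part in these correlations was not tested.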

How the data were processed

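RNA of whole uteri was hybridised to single-colour Agilent arrays (500 ng of total RNA, Cy3 dye, per the labels' protocols). The deposited files hold each array's spot intensity, read with Agilent Feature Extraction 9.5 per the submitters' processing notes, and per the file headers already background-corrected. The deposited series table holds the same intensity values. Probe positions are those of the array design.

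Each of the 43379 non-control spots was taken as log2 of the deposited processed intensity minus the 75th percentile of its array, outlier-marked spots were left out, with the mean taken over repeats of a probe. Probes were named by accession (22951), symbol (6659), synonym (3109) or as in the files (8455). The brightest probe stood for a gene. Group means of 29 arrays in 8 groups were fitted with limma 3.58.1 (R 4.3.3; statmod 1.5.0 for random blocks), in 12 comparisons. Genes well above background on 3 or more of the arrays in a comparison were tested and called at a Benjamini-Hochberg adjusted p under 0.05 over all genes tested. The fit was tested on simulated data. Values by slide are differences between the means of the 2 groups' arrays on 1 slide, given as the range over the slides that hold both groups. Correlations used 100000 permutations within groups (SciPy 1.17.1, Python 3.11.15). Neighbouring ligands within 300000 bases formed a cluster. The number of arrays limits the precision.

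The members and lists were chosen with earlier results of these data known. Ligands were named if called, if among the 4 highest and 4 lowest differences between exposures or the 3 highest and 3 lowest between days, if on a list of key ligands, or if among the 3 brightest or dimmest. Of other lists, called genes or up to 3 with the largest difference were named. A result on 1 other gene is not reported here. The other ligands are named where a count, cluster or flagged value includes them, after their values were seen.

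Same-numbered CON and GEN samples of GD5.5 deviated together (correlations 0.331 to 0.426). In 3 of 4 pairs both samples lay on 1 slide, so pairing by number cannot be told apart from a shared slide there. Differently numbered samples were not compared, and the labels do not say what a number marks. With the replicate block 0 ligands were called at GD5.5 too. Alternatives were other background corrections, scalings, filters, blocks and probe rules, a robust fit with variance trend, only the days compared, and each array left out.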

Additional observations from a re-analysis of the deposited data

Results flagged for a closer look

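In each group of 4 samples, the highest or lowest array was flagged where its gap to the nearest of the others, divided by the range of the group, exceeded Dixon's 95% critical value of 0.829. Chance flags about 5% of groups, and 9 of the 144 groups examined were flagged (6.25%). All values are log2 levels relative to the 75th percentile of the array.

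The sample GD4.5 GEN 4 stood far above the other 3 of its group for Ccl28 (-2.87, nearest -5.30), Ccl8 (3.74, nearest 1.35) and Cxcl16 (1.86, nearest 0.40). GD4.5 CON 2 was highest for Ccl2 (1.01, nearest -0.66), and GD4.5 CON 4 was highest for Xcl1 (-0.76, nearest -1.28). GD4.5 CON 1 was lowest for Ccl6 (1.55, nearest 2.52), and GD4.5 GEN 3 was lowest for Ccl4 (-3.30, nearest -2.15). GD5.5 GEN 3 was highest for Ccl8 (2.39, nearest 0.11). GD1.5 GEN 1 was lowest for Ccl27a (-0.20, nearest 0.08).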

How the results depend on the processing

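No called ligand changed sign under the alternatives run, but medians did. Normexp background correction gave 12 called ligands for GEN against CON at GD5.5 (median 0.737) and 12 for GD5.5 against GD4.5 in GEN (median 0.214, positive in place of -0.31), where 9700 of 20837 and 11754 of 20949 genes were called. It gave medians of 0.398 at GD1.5, -0.394 for GD5.5 against GD4.5 in CON and 0.939 for the difference of the GEN effect between those days. Refitting it without spots of high local background, chosen after seeing the data, gave medians of 0.456 at GD1.5, -0.347 at GD3.5 and -0.394 for the late change in CON. The fifth percentile of the corrected intensity of GD5.5 GEN 1 to GEN 3 was 248.8 to 540.0 before the refit. It was also raised on early arrays, at 400.7 for GD3.5 CON 3, 153.7 for GD3.5 GEN 1 and 85.48 for GD1.5 CON 1. After the refit these 3 read 60.32, 60.05 and 60.45, so normexp values of the early comparisons rest on such arrays too. Keeping only probes above background on all arrays gave 4 calls for GD3.5 against GD1.5 in GEN and medians of 0.345 at GD1.5 and -0.70 for the early difference of the GEN effect. With the replicate block, 1 ligand was called for the early change in CON, and the medians were -0.0705 at GD3.5 and -0.62 for the early difference of the GEN effect. The block also ended the early calls of Xcl1 (adjusted p = 0.0515, limma) and Cxcl17 (0.0591) in CON and of Ccl9 (0.172) and Cxcl14 (0.0576) in GEN, and the late calls of Cx3cl1 (0.0639) in CON and Ccl21c (0.0659) in GEN. A fixed slide block gave 0 calls for the early change in CON and 2 for the late change in GEN, where a fit of only the days compared gave 1.

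Leaving out each array in turn gave, for GEN against CON, 0 to 1 calls at GD1.5 (median 0.27 to 1.02), 0 to 0 at GD3.5 (-0.59 to -0.14), 0 to 0 at GD4.5 (-0.24 to 0.06), 0 to 2 at GD5.5 (-0.03 to 0.40) and 0 to 0 over the average (0.08 to 0.21). The early change gave 1 to 4 calls in CON (-0.12 to 0.32) and 3 to 10 in GEN (-1.22 to -0.62). The late change gave 8 to 14 in CON (-0.87 to -0.52) and 3 to 7 in GEN (-0.44 to -0.31). The differences of the GEN effect gave medians of -1.28 to -0.65, -0.0019 to 0.25 and 0.15 to 0.45, with 0 to 1 calls for the last. The median at GD5.5 turned negative without GD5.5 CON 1, and the medians near 0 (at GD4.5, for the early change in CON and for the GEN effect between GD3.5 and GD4.5) changed sign under several settings. Over settings, a ligand's call kept its side of the threshold in 1007 of its values and lost it in 109, and 9 values of uncalled ligands with an unadjusted p under 0.05 in a comparison that involves both exposures became calls. Other uncalled ligands were not followed singly. The causes were not tested. Ligands near background on most arrays set only bounds.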
